A study of Mus musculus with 12 samples.

Results

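The 6 genes described here, Abcb1a, Abcb1b, Abcg2, Abcc1, Abcc4 and Abcc5, encode ATP-binding cassette (ABC) pumps that carry drugs and the body's own metabolites out of cells. They were chosen by name, each with its single probe set that names 1 gene symbol, out of 19937 genes measured in this way. The 12 samples were total RNA from the small intestine of male wild-type FVB mice with a labelled age of 8 weeks, measured on Affymetrix whole-transcript arrays. A feeding period of 8 weeks preceded dissection. In it 6 mice ate a diet with little polyunsaturated relative to saturated fatty acid, called low P/S here, and 6 ate the control high-fat diet. The segment of the small intestine and the hour of dissection are not given in the labels.

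ABC pumps use the energy of ATP to move substrates across a membrane. In enterocytes, P-glycoprotein and the breast cancer resistance protein sit in the apical membrane and return drugs, dietary toxins and conjugates to the gut lumen, which limits oral uptake. The multidrug resistance-associated proteins of the Abcc family export conjugated anions, glutathione, leukotrienes and cyclic nucleotides, several of them across the basolateral membrane towards the blood.

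Intestine of low P/S mice held less transcript of Abcb1a, the main intestinal P-glycoprotein gene of the mouse, and more of Abcg2, which encodes the breast cancer resistance protein. Abcb1a was 1.49-fold lower and Abcg2 1.40-fold higher. Abcc5, an exporter of cyclic nucleotides, was 1.17-fold lower. Abcc1 and Abcc4 did not pass the test, with differences of 0.05 each on the log2 scale, and Abcb1b lay near the intensity floor. Of the 5 genes bright enough to be tested, 1 rose, 2 fell and 2 did not pass in limma at an adjusted p under 0.05, where 25.7% of all 11962 genes tested passed, 17.8% as higher and 7.87% as lower. With 5 genes this count is too small to set the pumps apart from other genes. Their median difference was 0.05, beside 0.02 over all genes tested. Each difference is a low P/S mean minus a control mean in log2 intensity, ± is the limma standard error (SE), and adjusted p-values are Benjamini-Hochberg values over all genes tested.

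Across the series, the median intensity of an array lay between 91.9 and 99.5, and correlations between arrays over the genes tested lay between 0.956 and 0.995. Enterocyte markers were bright, at a summed intensity of 53939 to 61632 on low P/S arrays and 55589 to 75064 on control arrays. In bulk tissue, fewer cells of a type and less RNA per cell cannot be told apart. All values carry the authors' own normalization, of which the sources used here say nothing.

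Whether a probe set carries a usable signal was judged against 1190 olfactory and vomeronasal receptor genes, sensory receptors that the gut is not known to use. These had a median intensity of 45.5 and a 95th percentile of 72.4. Abcb1a and Abcg2 were brighter than all of them (100%), at 58.8 and 32.3 times their median. Abcc1 was brighter than 99.5% of the receptor genes, and Abcc4 and Abcc5 each than 99.7%, but at only 2.39, 2.70 and 2.71 times their median. Abcb1b was at 1.48 times the median and exceeded 92.0% of them, so it counts as near the floor. Brightness depends on the probes as well as on the transcript, so these values do not rank the pumps by abundance.

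**Figure D1:**
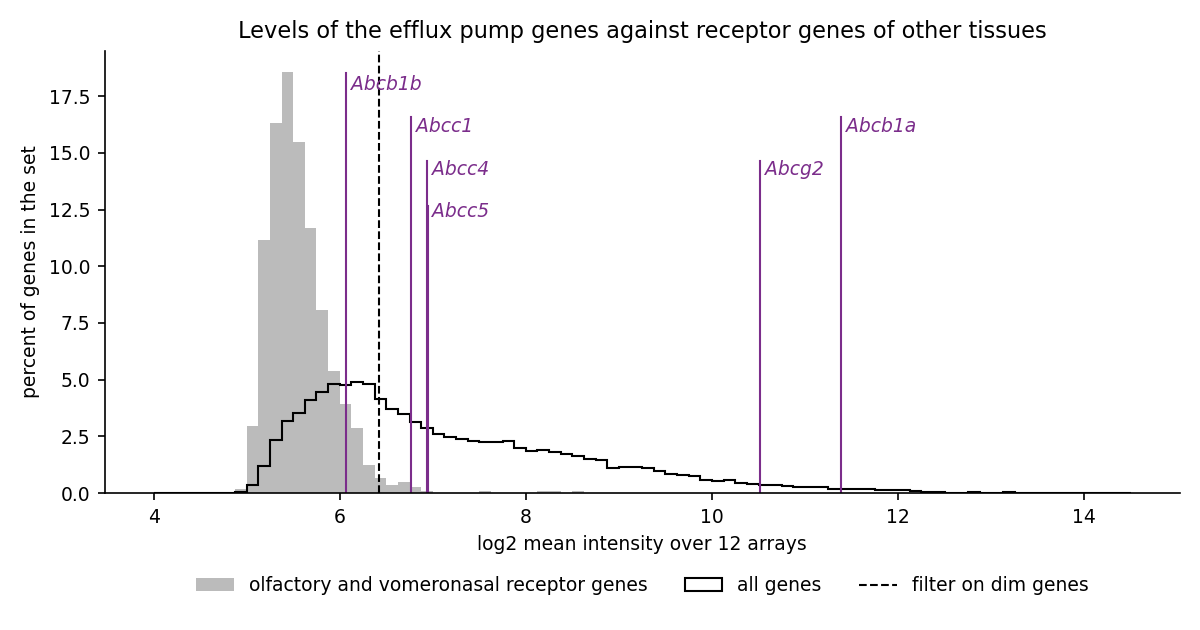
Distribution of log2 mean intensity over 12 arrays for all genes (black outline) and for olfactory and vomeronasal receptor genes (grey), in percent of each set. Purple lines mark the 6 pump genes and the dashed line the filter on dim genes at an intensity of 85.6: Abcb1b lies among the receptor genes, Abcc1, Abcc4 and Abcc5 on their upper edge, and Abcg2 and Abcb1a far above.

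Abcb1a (probe set 10519527, chromosome 5, 8567091 to 8748575 in GRCm38.p6) encodes the P-glycoprotein that dominates in mouse intestine and at the blood-brain barrier. Its intensity on the low P/S arrays had a lowest value of 1720, a median of 2306 and a highest value of 2447, against 2491, 3074 and 4321 on the control arrays. The 6 low P/S values were all under the 6 control values. Among the genes tested, 3.9% separated in this direction, 6.86% in the opposite one and 10.8% in either. The narrowest gap was small, between low P/S array 6 at 2447 and control array 3 at 2491, while control arrays 5 and 6 stood highest at 4236 and 4321. The difference of -0.58 ± 0.13 had a 95% interval of -0.85 to -0.31 (adjusted p = 0.00404), and the exact two-sided permutation p of 0.0022 was the smallest that 6 against 6 arrays can give. Among all genes tested it ranked 126 from the lowest difference. Without control array 5 or 6, the difference was -0.50 in either case, and it still passed.

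Abcb1b (probe set 10519555, chromosome 5, 8798147 to 8866314) is the second mouse P-glycoprotein gene and is known chiefly from adrenal, kidney and the pregnant uterus. It was too dim for the main test, with a lowest, median and highest intensity of 56.9, 63.5 and 66.6 for low P/S mice and of 64.1, 71.3 and 80.3 for control mice. The groups overlapped by a few units, with 4 of 6 low P/S arrays below the lowest control array. When no filter on dim genes was applied, its difference of -0.20 ± 0.06 passed in limma (adjusted p = 0.0340). Over the 12 arrays its log2 values moved with those of Abcb1a (r = 0.90, and 0.78 for deviations from the diet means), given as a description. Hybridization of Abcb1a transcript to the Abcb1b probes was not tested, so a change of the dim gene itself is uncertain.

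Abcg2 (probe set 10538640, chromosome 6, 58584491 to 58692451) encodes a half-size pump that works as a dimer and carries urate, porphyrins, sulphate conjugates and many drugs. Its intensity had a lowest, median and highest value of 1480, 1796 and 1914 on low P/S arrays, against 995, 1192 and 1531 on control arrays. All but 1 low P/S array lay above the highest control array. The exception was low P/S array 6 at 1480, which lay below control array 1 at 1531 and just above control array 2 at 1472. The difference was 0.49 ± 0.10 (95% interval 0.29 to 0.69, adjusted p = 0.00171, exact permutation p = 0.00433), and 188th was its place from the highest difference among all genes tested. Leaving out control arrays 1 and 2 together gave 0.63 ± 0.08.

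**Figure D2:**
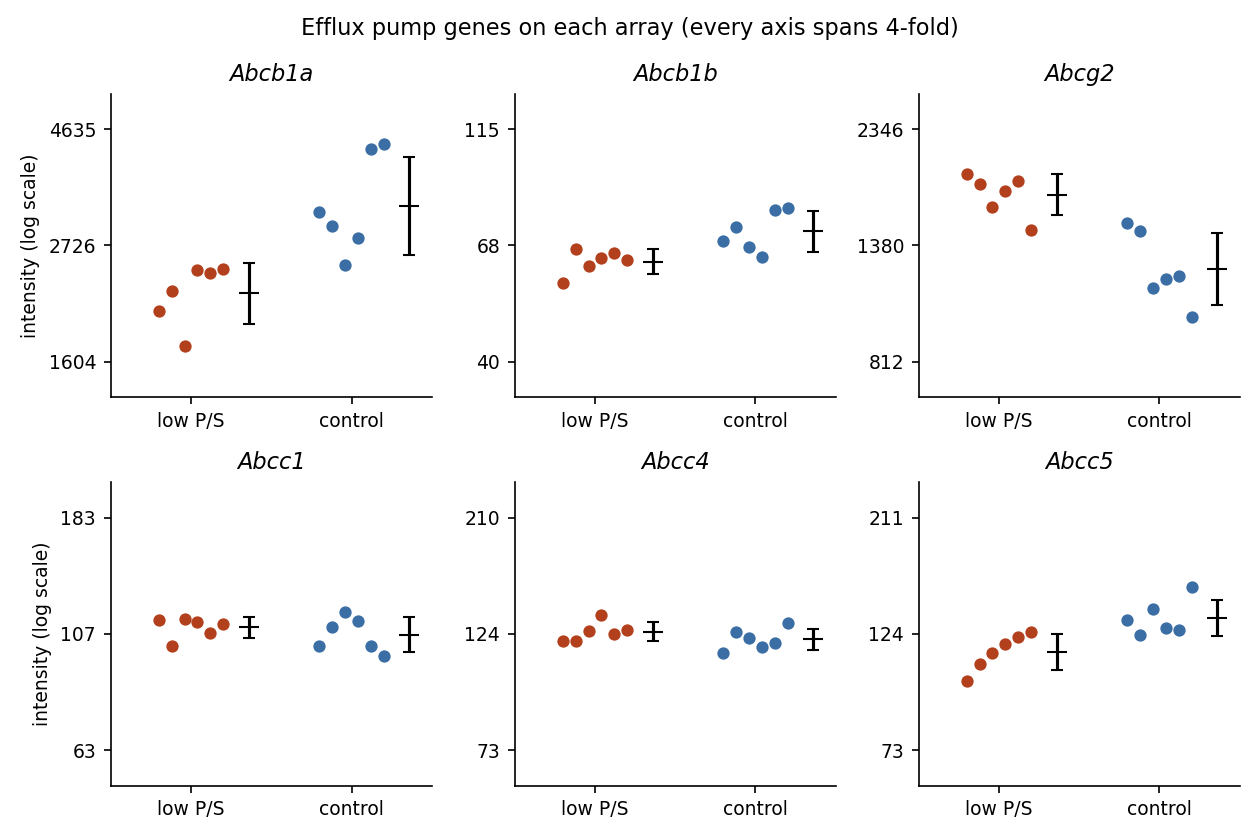
Intensity of the 6 pump genes on each array, low P/S left and control right, on log axes that each span 4-fold. Points are arrays and bars the mean ± SD of log2 values (n = 6 each); Abcb1a separates by diet, Abcg2 and Abcc5 overlap by 1 low P/S array, and Abcc1 and Abcc4 overlap widely.

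Because Abcb1a fell and Abcg2 rose, their ratio within an array, from which any scaling of the whole array cancels, moved further than either. The log2 of Abcg2 over Abcb1a had a lowest, median and highest value of -0.73, -0.33 and -0.07 on low P/S arrays and of -2.12, -1.19 and -1.01 on control arrays. No low P/S array reached the control range. Abcb1a alone already separated the diets and Abcg2 moved the other way, which favours this, so it is no separate result. The mean was -0.33 ± 0.25 on low P/S and -1.40 ± 0.46 on control arrays (SD, n = 6 each). The difference of 1.07 shows unequal change of the 2 transcripts and was not tested further. Within the diets the genes were only loosely tied (r = -0.26 for deviations from the diet means over 12 arrays).

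**Figure D3:**
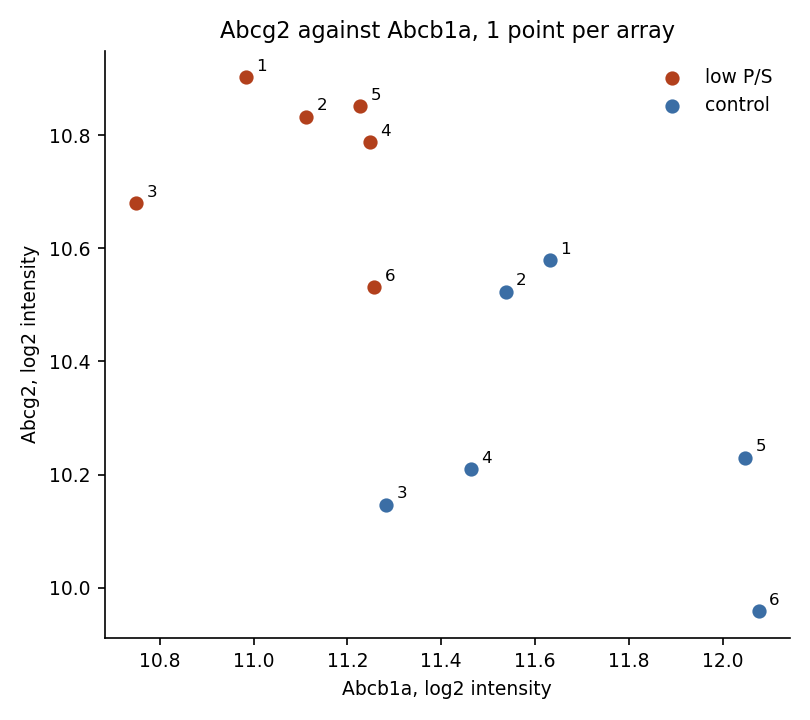
Log2 intensity of Abcg2 against Abcb1a, 1 point per array, numbered by replicate. Low P/S arrays (red) lie to the upper left and control arrays (blue) to the lower right; control arrays 5 and 6 have the most Abcb1a, and control array 6 the least Abcg2.

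Abcc5 (probe set 10438478, chromosome 16, 20331303 to 20426428) encodes a broadly expressed pump for cyclic nucleotides and nucleotide analogues. Its lowest, median and highest intensities were 100.03, 116 and 125 for low P/S mice and 123, 129 and 153 for control mice. Low P/S array 6 at 125 was the single low P/S array that reached into the control range. Its difference was -0.22 ± 0.07 (95% interval -0.36 to -0.08, adjusted p = 0.0203, exact permutation p = 0.00433). With the median of the receptor genes taken off each array as background, the difference was -0.33 (adjusted p = 0.0194), so the size of this change depends on how much of the dim signal is counted as background. The call was close to the threshold without low P/S array 1 (adjusted p = 0.0499).

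Abcc1 (probe set 10433735, chromosome 16, 14361453 to 14474878) encodes a basolateral pump for glutathione conjugates and leukotriene C4. Its lowest, median and highest intensities were 102, 113 and 115 on low P/S arrays and 97.0, 106 and 119 on control arrays, which overlapped almost fully. The difference was 0.05 ± 0.06, with a 95% interval of -0.07 to 0.17 (adjusted p = 0.560). Abcc4 (probe set 10422280, chromosome 14, 118482692 to 118707856), which exports cyclic nucleotides, prostaglandins and bile acid conjugates, had 120, 125 and 135 on low P/S arrays and 114, 120 and 130 on control arrays. Its difference of 0.05 ± 0.05 had an interval of -0.05 to 0.15 (adjusted p = 0.478). For both genes the interval leaves room for changes in either direction, and with the receptor background taken off the differences were 0.11 and 0.10 and again did not pass.

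The upstream DNA of the 2 genes with the largest changes is shown because both are known from mouse work to respond to transcription factors of the basic leucine zipper type. In mouse intestine Abcb1a is activated by Dbp, Tef and Hlf and repressed by Nfil3, all of which bind D-box elements, and Abcg2 has been tied to Atf4 in the daily rhythm. The sequences are the 250 bases before RefSeq starts in GRCm38.p6, and capitals mark matches to the D-box or to the cAMP response element. For Abcg2, whose table entry has 3 starts, the most upstream and the most downstream are given, as these hold such a match.
Abcb1a, plus strand, chr5:8566841-8567090: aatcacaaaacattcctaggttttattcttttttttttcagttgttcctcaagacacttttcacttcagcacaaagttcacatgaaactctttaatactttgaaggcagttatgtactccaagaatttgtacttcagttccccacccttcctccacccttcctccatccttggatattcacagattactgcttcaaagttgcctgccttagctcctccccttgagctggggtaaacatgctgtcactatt
Abcg2 upstream start, plus strand, chr6:58584283-58584532: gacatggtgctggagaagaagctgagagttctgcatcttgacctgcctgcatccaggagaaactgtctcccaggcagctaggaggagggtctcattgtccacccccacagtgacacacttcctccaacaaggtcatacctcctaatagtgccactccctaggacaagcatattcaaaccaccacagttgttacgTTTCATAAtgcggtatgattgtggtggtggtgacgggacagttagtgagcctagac
Abcg2 downstream start, plus strand, chr6:58640296-58640545: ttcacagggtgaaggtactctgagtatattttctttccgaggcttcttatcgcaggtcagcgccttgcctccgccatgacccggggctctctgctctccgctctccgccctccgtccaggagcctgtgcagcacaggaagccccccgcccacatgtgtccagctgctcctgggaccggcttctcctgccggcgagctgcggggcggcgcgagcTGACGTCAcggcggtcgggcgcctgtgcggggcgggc

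The motifs searched on both strands were the D-box (TTATGNAA), the cAMP response element (TGACGTCA), the E-box (CACGTG), cores of the antioxidant (TGACNNNGC) and dioxin (GCGTG) response elements, the GC box (GGGCGG), the CCAAT box by its letters and the TATA box (TATAAA). The Abcb1a window held no match to any of these 8 motifs. The upstream Abcg2 window had a D-box match 56 bases before the start, as had 3.07% of 32851 windows of this length, and the downstream window a cAMP response element 37 bases before the start, found in 1.55% of windows. The E-box, in 6.02% of windows, was matched in the first of the 2 windows listed for Abcc4. GC boxes, in 32.7% of windows, were matched in the middle and downstream Abcg2 windows, for Abcb1b and in the first Abcc4 window. Abcb1b also had CCAAT boxes (33.8% of windows). Antioxidant cores (10.2%) were matched in both Abcc4 windows and dioxin cores (28.2%) in the first. GC content was 40.4% in the Abcb1a window and 67.6% in the downstream Abcg2 window, against a median of 52.4%. A match is a description of the letters only, and these data hold no binding measurements.

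The transcripts of these factors also differed between the diets; they were chosen with their values known. Dbp had a lowest, median and highest intensity of 114, 144 and 335 for low P/S mice and of 480, 584 and 1108 for control mice, and was 4.10-fold lower (adjusted p = 4.90e-05). Tef was 2.01-fold lower (-1.01 ± 0.12) and Hlf 1.44-fold lower (-0.52 ± 0.13), while the repressor gene Nfil3 rose 1.93-fold (0.95 ± 0.17) and Atf4 1.23-fold (0.30 ± 0.07), each passing in limma. Relations with Dbp were computed within each diet for Abcb1a, Abcg2 and Abcc5, 6 in all with n = 6 arrays each.

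For Abcb1a, Pearson's r with Dbp was 0.46 on the low P/S diet (exact permutation p = 0.354, adjusted 0.354; Spearman's rho 0.54, exact p = 0.297, adjusted 0.356) and 0.88 on the control diet (exact permutation p = 0.0361, adjusted 0.113; rho 0.54, exact p = 0.297, adjusted 0.356). Without the 2 arrays of most extreme Dbp in each diet, r was -0.32 for low P/S and -0.23 for control mice. In the control group these were arrays 5 and 6, and the arrays left had Dbp intensities of only 480 to 614. An r over so few arrays and so narrow a range is unstable, so it cannot show what the relation rested on. For Abcg2, r was -0.76 on the low P/S diet (exact permutation p = 0.0611, adjusted 0.122; rho -0.66, exact p = 0.175, adjusted 0.350) and -0.73 on the control diet (exact permutation p = 0.118, adjusted 0.177; rho -0.71, exact p = 0.136, adjusted 0.350), and -0.95 for low P/S and -0.59 for control mice without such arrays. For Abcc5, r was 0.84 on the low P/S diet (exact permutation p = 0.0375, adjusted 0.113; rho 0.94, exact p = 0.0167, adjusted 0.100) and 0.58 on the control diet (exact permutation p = 0.213, adjusted 0.255; rho 0.49, exact p = 0.356, adjusted 0.356), and 0.84 for low P/S and 0.34 for control mice without them. None passed after adjustment over the 6 relations. Untested r of deviations from the diet means over 12 arrays are given as a description, in the order Abcb1a, Abcg2 and Abcc5. They were 0.66, -0.69 and 0.72 with Dbp, 0.75, -0.72 and 0.80 with Tef, and 0.50, -0.87 and 0.63 with Hlf. With Nfil3 they were -0.19, 0.42 and -0.56, and with Atf4 0.27, 0.53 and -0.31. The part of the hour of dissection in the pump differences was not tested.

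**Figure D4:**
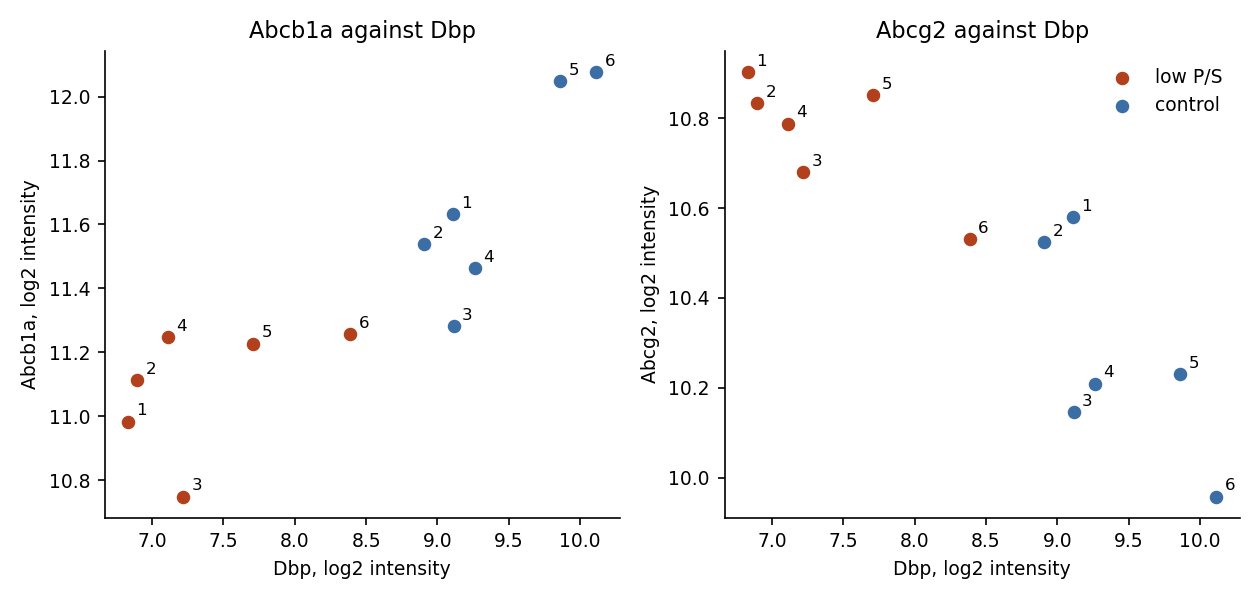
Log2 intensity of Abcb1a (left) and Abcg2 (right) against Dbp, 1 point per array, numbered by replicate. Low P/S arrays (red) have less Dbp than control arrays (blue) throughout; control arrays 5 and 6 combine the most Dbp with the most Abcb1a, and control array 6 has the least Abcg2.

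Other ABC genes on the array numbered 45, of which 28 were bright enough to be tested. In the same fit 6 rose, 4 fell and 18 did not pass (median difference -0.01). The share passing was 35.7%, beside 25.7% of all genes tested. The largest rises were in Abcd3, a peroxisomal importer of long-chain acyl-CoA (1.55-fold, 0.64 ± 0.11), Abce1, a ribosome recycling factor that is no transporter (1.48-fold, 0.57 ± 0.10), and Abcc3, a basolateral exporter of bile acids and glucuronides (1.38-fold, 0.47 ± 0.10). Abcb6, a porphyrin transporter, rose 1.20-fold. Abca1, the cholesterol exporter, fell by 0.58 ± 0.10 on the log2 scale and Abcc6, a relative of Abcc1, fell by 0.41 ± 0.08. Cftr, the chloride channel of the family, was 1.25-fold lower and Tap2, a subunit of the antigen peptide transporter, 1.24-fold lower. The number that fell was 9 with quantile normalization, 7 without control array 2 and 8 without low P/S array 2.

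Abcc2, the apical exporter of conjugates, did not pass (-0.21 ± 0.08, adjusted p = 0.0621), with geometric mean intensities of 3553 for low P/S and 4104 for control mice. Of 8 further exporters of drugs, bile salts and anions fixed as a list, 5 could be tested. Abcc3 rose, Abcc6 and Cftr fell, and Abcc2 and Abcc10 did not pass. With 5 genes this count is too small to set beside the 25.7% of all genes tested that passed. The bile salt pump gene Abcb11, the phospholipid flippase gene Abcb4 and Abcc12 were too dim.

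**Figure D5:**
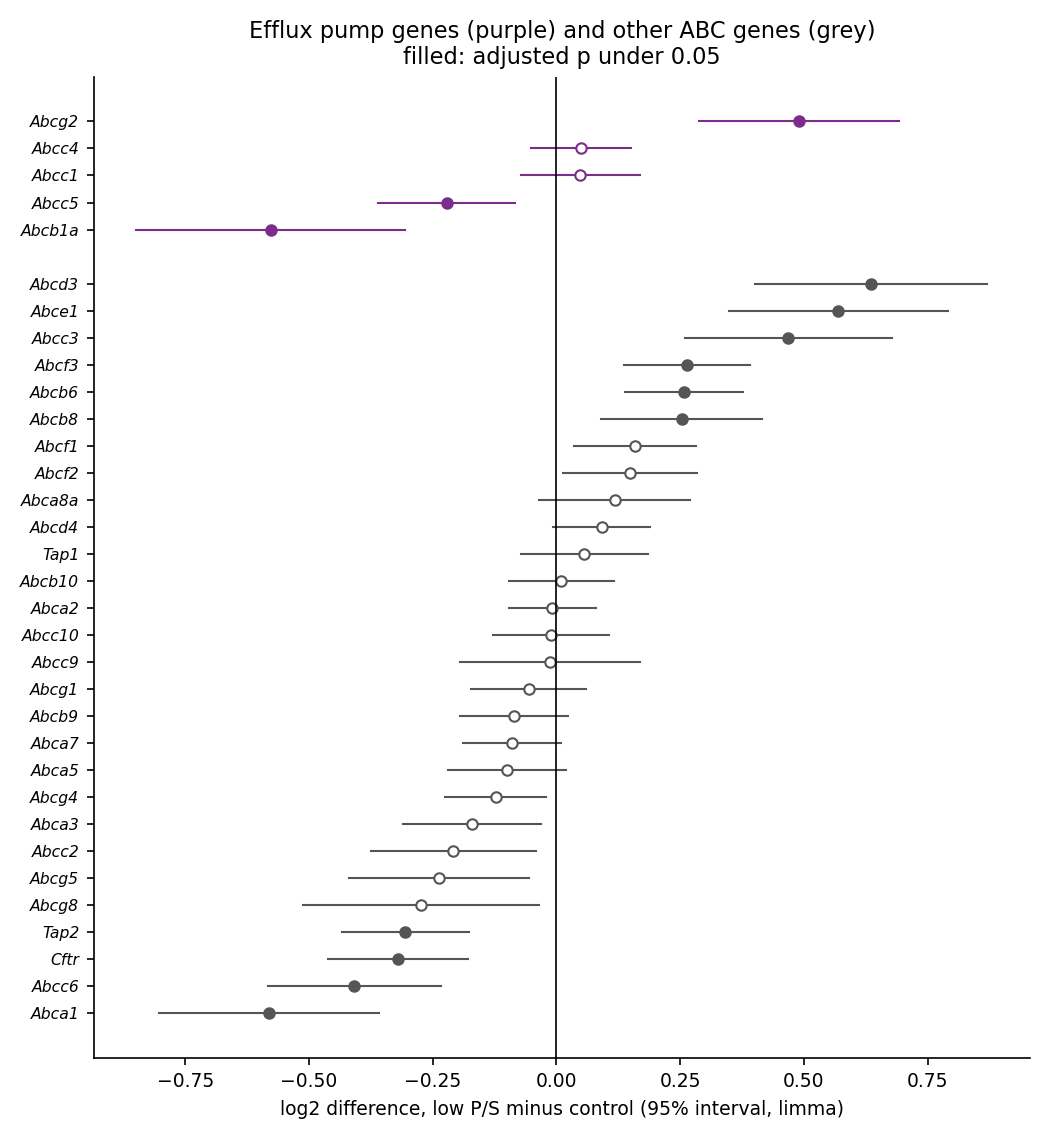
Log2 difference, low P/S minus control, with its 95% limma interval for the 5 tested pump genes (purple, top) and 28 other ABC genes (grey). Filled points passed at an adjusted p under 0.05; Abcg2 lies at 0.49 and Abcb1a at -0.58, within the range of the other ABC genes from Abca1 at -0.58 to Abcd3 at 0.64.

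The pregnane X receptor and the constitutive androstane receptor bind foreign compounds and are known to induce P-glycoprotein genes together with P450 genes. Of 13 of their other targets that could be tested, 5 fell, 1 rose and 7 did not pass (median -0.07). The share passing was 46.2%, beside 25.7% of all genes tested (17.8% as higher, 7.87% as lower). The P450 genes Cyp2b10 and Cyp3a11, whose products oxidize drugs that P-glycoprotein also carries, were 1.63-fold and 1.45-fold lower. Their arrays did not overlap between the diets, but both genes were named for their small p, which favours separation. In the whole list 3 of 13 tested genes separated by diet, beside 10.8% of all genes tested in either direction. Cyp3a13 was 1.29-fold lower. Alas1, which starts haem synthesis, was the gene that rose (1.41-fold). A list of 16 sensor genes, which includes Nr1i2 and Nr1i3 for those receptors, had 1 higher and 2 lower, with 13 not passing. Its share passing was 18.75%. The glucocorticoid receptor gene Nr3c1 was 1.15-fold lower (adjusted p = 0.00860). The calls of Nfe2l2 as higher (adjusted p = 0.0410) and of the vitamin D receptor gene Vdr as lower (adjusted p = 0.0469) each ended without any 1 of 8 arrays (highest adjusted p 0.0957 and 0.110). These were control arrays 3 to 6 and low P/S arrays 1, 4, 5 and 6 for Nfe2l2, and control arrays 1, 4, 5 and 6 and low P/S arrays 1, 3, 4 and 5 for Vdr. Over the alternatives 0 to 2 sensor genes rose and 1 to 6 fell, and with quantile scaling 0 rose and 6 fell.

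Of 8 tested targets of the antioxidant factor Nfe2l2, 2 rose, 2 fell and 4 did not pass. The share passing was 50%, beside 25.7% of all genes tested. Mgst1, a microsomal glutathione transferase, rose 1.60-fold, whereas Gclm and Gclc, the subunits of the enzyme that limits glutathione synthesis, were 1.40-fold and 1.21-fold lower. Txnrd1 was 1.20-fold higher. The call of Gclc was lost when any 1 of low P/S arrays 3 and 6 and control arrays 5 and 6 was left out (highest adjusted p = 0.0675), and that of Txnrd1 for any 1 of low P/S arrays 1, 2, 4 and 5 and control arrays 3, 4 and 6 (highest adjusted p = 0.101). None of 3 tested targets of the aryl hydrocarbon receptor passed in limma, 1 had an unadjusted p under 0.05, and Cyp1a1 itself was too dim.

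Of 15 tested uptake transporters for drugs and organic ions, 4 rose, 4 fell and 7 did not pass (median -0.01). The share passing was 53.3%, beside 25.7% of all genes tested. Those that fell were led by Slc28a2. This purine nucleoside carrier gene was 2.37-fold lower, the prostaglandin transporter gene Slco2a1 1.79-fold lower, the carrier gene Slc22a4 1.54-fold lower and Slc46a3, a lysosomal carrier, 1.24-fold lower. These 4 genes were named for their small p, which favours separation, so their lack of overlap between the diets is no separate result. In the whole list 4 of 15 tested genes separated by diet, beside 10.8% of all genes tested in either direction.

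Pumps of the apical membrane are anchored and sorted by scaffold and motor proteins. Of 14 scaffold and trafficking genes 4 fell, 0 rose and 10 did not pass. Thus 28.6% passed, beside 25.7% of all genes tested (7.87% as lower). At an unadjusted limma p under 0.05 there were 8 of the 14, 7 of them lower. The share of all genes at that level was not taken. It is at least the 25.7% that passed after adjustment, so this count does not set the list apart. With quantile normalization 8 fell, as did 1543 of all 11962 genes tested. Ezr, which links membrane proteins to actin, was 1.55-fold lower (-0.64 ± 0.06) and its partner Slc9a3r1 1.35-fold lower. The microvillus genes Myo1a and Vil1 were 1.31-fold and 1.23-fold lower. None of these 4 overlapped between the diets, but they were named for their small p, which favours separation. In the whole list 4 of 14 genes separated by diet, beside 10.8% of all genes tested in either direction.

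Genes that handle the substrates of the pumps were taken as 3 further lists. Of 16 tested genes of cyclic nucleotide synthesis, breakdown and effectors, 5 fell, 0 rose and 11 did not pass. Thus 31.25% passed, beside 25.7% of all genes tested (7.87% as lower). At an unadjusted limma p under 0.05 there were 8 of the 16, 7 of them lower. The share of all genes was again not taken and is at least 25.7%, so this count does not set the list apart. With quantile normalization 8 fell, as did 1543 of all 11962 genes tested, against 942 in the main fit. The guanylin gene Guca2a, the uroguanylin gene Guca2b, their receptor Gucy2c and the cyclic GMP-dependent kinase gene Prkg2 were 1.31-fold, 1.25-fold, 1.17-fold and 1.29-fold lower. Of 12 tested genes of haem and porphyrin metabolism, which makes substrates of Abcg2, 8 did not pass. Beside 17.8% of all genes tested, the other 4 rose (33.3%). These were Alas1, Ppox (1.24-fold), Cpox (1.18-fold) and Blvra, whose call was lost when any 1 of control arrays 3, 4 and 6 or any low P/S array but array 2 was left out (highest adjusted p = 0.0932). Of 7 tested leukotriene genes 2 rose, Ltc4s, which makes the leukotriene that Abcc1 exports (1.39-fold), and Dpep1 (1.23-fold). The share passing was 28.6%, beside 25.7% of all genes tested.

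Markers of the cell types in the tissue also differed. Of all genes tested, 17.8% passed as higher and 7.87% as lower, and each marker list is small. Among 9 enterocyte markers 4 fell, led by Lct (1.93-fold), Vil1 and Sis (1.29-fold), 1 rose and 4 did not pass. Of 8 tested endothelial markers, 2 rose and 6 did not pass; the summed intensity of the list was 927 to 1046 on low P/S and 879 to 969 on control arrays. T cell markers had 2 of 4 tested lower, with sums of 818 to 1132 on low P/S and 995 to 1194 on control arrays, and Cd4, Cd2, Cd3d and Cd8b1 too dim. Macrophage and dendritic cell markers had 6 of 8 tested higher, led by C1qc (1.48-fold) and Csf1r (1.45-fold). Their sums were 2543 to 3285 on low P/S and 2118 to 2552 on control arrays. Much of these sums was Lyz2, which did not pass (limma adjusted p = 0.170). Its geometric means were 1457 on low P/S and 1290 on control arrays. Dividing and stem cell markers had 3 of 6 higher, all of them genes of dividing cells, Mki67 (1.35-fold), Top2a and Cdk1. The call of Top2a was lost in 2 of the fits with 1 array left out (highest adjusted p = 0.0512). The stem cell markers Lgr5, Olfm4 and Smoc2 did not pass (limma adjusted p = 0.159, 0.984 and 0.834). Sums of the whole list were 3021 to 4109 on low P/S and 2591 to 3999 on control arrays. Paneth cell markers had 1 of 6 higher, with sums of 20502 to 24970 on low P/S and 18396 to 24135 on control arrays. None of 7 smooth muscle markers passed in limma, nor did the single mast cell marker bright enough to test, and 0 of these 8 had an unadjusted p under 0.05. The smooth muscle sums were 5336 to 7942 on low P/S and 6724 to 9908 on control arrays. The mast cell sums were 470 to 512 on low P/S and 503 to 531 on control arrays. As 6 of the 7 mast cell markers were too dim to test, these sums hold mostly dim signal and do not measure mast cells. Over the alternatives the counts ranged from 0 to 1 higher for enterocyte, 0 to 4 higher for endothelial, 2 to 4 lower for T cell and 0 to 2 higher for Paneth cell markers. The part of these cell types in the pump differences was not tested.

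The genes whose levels over the 12 arrays were most like a pump gene are given as a description, with Pearson's r of log2 values and, after it, r of deviations from the diet means. Abcb1a was most like Mapre2, a microtubule end-binding protein gene (r = 0.96 and 0.91), Clcn5, an endosomal chloride transporter gene (0.95 and 0.92), and Plekhh1 (0.95 and 0.88). Abcg2 was most like Crot, a peroxisomal carnitine acyltransferase gene (0.99 and 0.97), Hadhb, which encodes a subunit of the mitochondrial trifunctional protein of fatty acid oxidation (0.98 and 0.95), and the translation initiation factor gene Eif3c (0.98 and 0.94). Crot and Hadhb rose 1.41-fold and 1.39-fold, close to the 1.40-fold of Abcg2. Being picked by r over these same 12 arrays favours a like fold and a high r within the diets, so neither is a separate result.

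For the dimmer pumps r over the 12 arrays was lower, though Abcc4 reached 0.95 for deviations from the diet means. Abcc5 was most like Mfsd2b (0.94 and 0.89), Cipc, a repressor of the clock that was 1.36-fold lower (0.92 and 0.84), and Dnajb8 (0.92 and 0.85). Abcc4 was most like Prex2 (0.92 and 0.95), Gtse1 (0.88 and 0.91) and Rgcc (0.86 and 0.85), and Abcc1 like Rdx (0.86 and 0.86), Ro60 (0.85 and 0.88) and Lyst (0.84 and 0.85). Among low P/S arrays, array 4 was the highest for Abcc4 (135), Prex2 (125) and Rgcc (154). All genes named as most like a pump were picked as the highest of 11962, and arrays share whatever separates them as a whole.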

How the data were processed

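The table the authors deposited holds 1 linear intensity for each probe set on each array, from 17.7 to 20294, and their summarization and normalization steps are not stated in the labels. Per the labels, labelled cDNA was made from 500 ng of total RNA with a whole-transcript kit and no ribosomal RNA reduction. Of 34760 probe sets, 21640 named 1 gene symbol, 1321 several and 11799 none. The brightest single-symbol probe set by its mean over 12 arrays was used per gene, which gave 19937 genes; each pump gene had 1. Genes under the 40th percentile of mean level (intensity 85.6) were left out as dim, which left 11962. Log2 values were compared in limma 3.58.1 (R 4.3.3; lmFit and eBayes, two-sided, diet as the only term) with Benjamini-Hochberg adjustment at 0.05. Single genes were also compared by exact permutation of the 12 arrays. Python 3.11.15, NumPy 2.4.6, SciPy 1.17.1, pandas 2.3.3 and matplotlib 3.10.9 were used. The fit was tested on simulated data with noise drawn independently for each gene. It recovered 20 of 50 planted log2 changes of 0.25 and 49 of 50 of 0.5. Of 184 calls in it, 15 were false. The main fit made 3074 calls over as many genes, so a gene there passed at a larger unadjusted p. The simulated rates therefore do not carry over to the main fit. The number of arrays limits the precision, and the design text calls the arrays biological replicates.

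The members, the 19 lists (234 symbols, 219 found) and the alternatives were chosen with earlier results of these data known. Genes named were all 6 pumps, up to 4 passing genes of smallest p per list (8 for other ABC genes) and the 3 genes most like each tested pump; Dbp, Tef, Hlf, Nfil3 and Atf4, Abcc2 and genes named as not passing or dim were added after their values were seen. Listed genes not found were not analysed here. Coordinates and promoters are from RefSeq (GRCm38.p6); 5 of 6 pumps had a promoter entry. Alternatives were 2 other scalings, 2 other filters, the mean of probe sets, a pseudocount of 16, background removal with a floor of 8, a trended robust prior, array weights, a replicate block and leaving out arrays. Arrays share replicate numbers between diets, and the labels name no pairing. Same-numbered arrays correlated between -0.11 and 0.42 in their deviations over genes, so the main fit did not treat them as pairs. Single genes could still follow the number. Dbp was lowest on arrays 1 and 2 and highest on arrays 5 and 6 in both diets, and what this order stands for was not tested.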

Additional observations from a re-analysis of the deposited data

Results flagged for a closer look

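Among 144 groups of 6 arrays (72 named genes on 2 diets), 5 held an array set far apart from the others, with a gap to the nearest one above Dixon's critical value at 95% for 6 samples; chance flags about 1 in 20 such groups. None was a pump gene. On the low P/S diet, array 4 was the highest for Emcn (121, next 101), Prex2 (125, next 110) and Rgcc (154, next 126). Low P/S array 2 was the lowest for Blvra (510, next 580), and low P/S array 5 the lowest for Cd8a (146, next 185).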

How the results depend on the processing

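Over the alternatives run in limma, Abcb1a stayed lower (-0.66 to -0.50, highest adjusted p 0.0108) and Abcg2 higher (0.39 to 0.63, highest adjusted p 0.00544) in 23 fits each. Abcc5 stayed lower in 22 fits (-0.33 to -0.18, highest adjusted p 0.0499). Abcc1 (0.02 to 0.11) and Abcc4 (0.03 to 0.10) passed in none of 22 fits, with smallest adjusted p-values of 0.344 and 0.256; these 3 genes were too dim for the 60th percentile filter. Abcb1b, not tested in the main fit, had a difference of -0.20 with no filter (adjusted p = 0.0340); the exact permutation test, unadjusted, gave p = 0.00866, and permutation within replicate numbers gave p = 0.0312, the smallest that 6 numbers allow. Its level near the floor limits what these values show.

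The replicate number as a block left each pump gene on the same side of the threshold (Abcb1a adjusted p = 0.000341, Abcg2 0.000131, Abcc5 0.0105), and 3530 genes passed. With the block the SE was 0.08 for Abcb1a and 0.06 for Abcg2, against 0.13 and 0.10 in the main fit. Of the low P/S arrays, 2 of 6 correlated best with the control array of the same number. In all, 3074 genes passed in the main fit (2132 higher, 942 lower) and 2409 to 3325 with 1 array left out. The split by direction moved with the scaling, to 1775 higher and 1543 lower after quantile normalization and to 2308 higher and 715 lower after median centring. Of 66 other named genes, 2 near 0 changed sign. Ro60 had -0.0036 in the main fit, 0.0060 with quantile normalization, 0.022 with median centring, 0.020 with background taken off and -0.0352 to 0.0285 with 1 array left out. Lyst had 0.01 in the main fit, -0.00693 with array weights and -0.0169 to 0.0428 with 1 array left out. The cause was not tested. In 1508 refits of the 66 genes, 78 calls were lost and 16 gained.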
